A study of Brachypodium distachyon with 45 samples.

Results

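KOZ1 is a genotype of the model grass Brachypodium distachyon whose labels describe it as highly susceptible to drought. At T2, which was day 8 of a progressive drought treatment begun 32 days after germination, leaves of droughted KOZ1 plants (KOZ1 T2 drought) were compared with leaves of well-watered KOZ1 plants of the same age (KOZ1 T2 control). Each group held 3 RNA libraries, and the same treatment and control groups were taken at T1 (day 4) and in the genotypes ABR4 and ABR8, with a well-watered T0 group (day 0) for each genotype. For each group the deposited table gives 1 pooled FPKM, a fragment count scaled for transcript length and for the number of mapped fragments, with a lower and an upper 95% confidence limit. Replicate spread enters only through these limits. In the KOZ1 T0 group the watering field of the labels reads as unwatered although the titles say control, and the titles were used. Of 33852 loci in the table, 17678 had an FPKM of at least 1 in KOZ1 T2 drought or control, and these are called the expressed loci below. Of these, 15743 reached 1 in both groups, 877 only in the control and 1058 only under drought. The expressed locus nearest to the limit was Bradi3g16270, at 1.00 in the control and 0.613 under drought, and the locus just under it was XLOC_033822, at 0.137 and 0.999.

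When soil dries, leaves make abscisic acid, a hormone that closes stomata and switches on many genes, and growth by cell wall loosening slows down. Sugars and other small solutes move between cells and accumulate, and genes of photosynthesis, which are among the most highly expressed of a leaf, are commonly turned down as the leaf loses water. A leaf is a mixture of cell types. In pooled leaf RNA, fewer cells of a type and less RNA per cell cannot be told apart.

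The FPKM values of KOZ1 T2 drought stood on another level from those of the other groups. They summed to 479128, against 624700 to 759455 over the other 14 groups of the series, and 750890 in the KOZ1 T2 control. The median FPKM of the expressed loci moved the other way, from 7.31 in the control to 7.92 under drought. The comparison with the T2 control was therefore made on the deposited FPKM and again after multiplying the drought values by 0.923, which sets the medians equal and lowers each log2 change by 0.12. The label of 1 of the 3 drought libraries carries another sequencing run code than those of the other 5 KOZ1 T2 libraries, and a pooled value does not separate it. AGL6 (Bradi3g51800) and MADS2 (Bradi4g40350), MADS-box genes of grass flowers, were listed at 0 in both KOZ1 T2 groups, and Bradi5g04080, annotated with ribulose-bisphosphate carboxylase activity, was at 438 in the control and 231 under drought.

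Leaf genes differed between droughted and watered KOZ1 at T2, in both directions. A locus was called higher or lower where it differed at least 2-fold with an adjusted p of at most 0.05, in a z-test on the logarithm of FPKM with the error taken from the deposited limits. Of the expressed loci, 990 were called higher under drought and 1201 lower. Over all 26286 loci tested, 3.77% were called higher and 4.57% lower. Without adjustment of p, 1590 were higher and 1796 lower, beside 6.17% and 6.94% of the loci tested. Among the calls, 505 rises and 525 falls were at least 4-fold, and 145 rises and 66 falls were at least 16-fold. The median log2 change of the expressed loci was 0.08. After median scaling, 838 were called higher and 1402 lower (3.19% and 5.33% of the loci tested), and the median log2 change was -0.04. Of the calls on deposited FPKM, 837 rises and all 1201 falls were also called in the same direction after median scaling. When the 2 groups were instead set to the same sum, 3499 expressed loci were called higher and 545 lower (13.4% and 2.07% of the loci tested), so the share of rises among the calls went from 45.2% to 86.5%. Under all 3 scalings 837 loci were called higher and 544 lower.

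**Figure D1:**
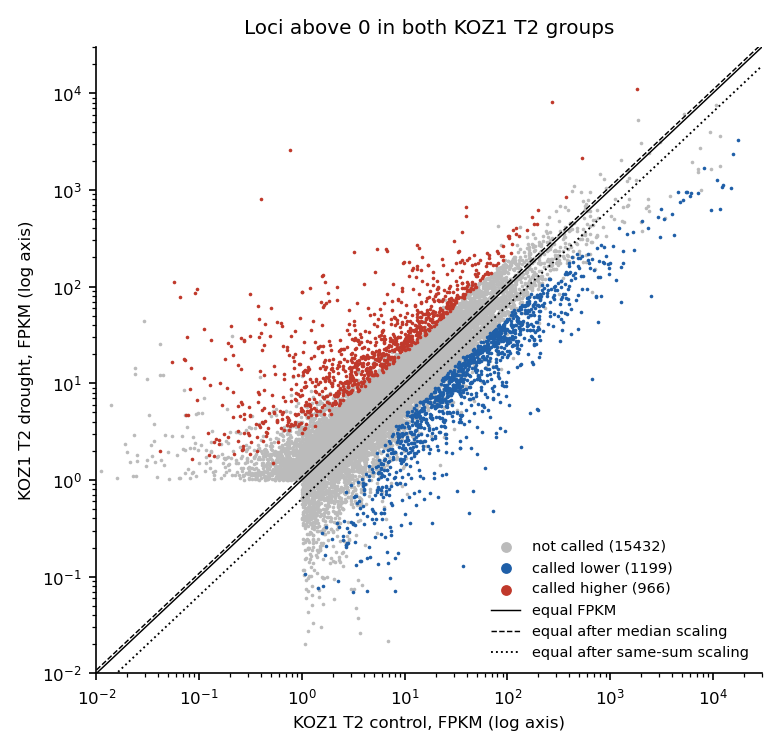
FPKM of each expressed locus above 0 in both KOZ1 T2 groups, control on the horizontal and drought on the vertical log axis. Points far above the diagonal start from low control values and points far below it lie mostly at higher control values, and the 3 lines mark equal levels as deposited, after median scaling and after scaling to the same sum. Where the far points lie follows in part from the FPKM limit for expressed loci and from the control value being part of the ratio.

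Loci that were abundant in watered leaves fell more often than they rose. To grade loci by a level that the comparison did not use, they were ordered by FPKM in the KOZ1 T1 control. Of the 68 expressed loci at 1000 or more there, 35 (51.5%) were called lower at T2 and 1 was called higher, with a median log2 change of -2.30. Of the 674 loci from 100 to 1000, 263 (39.0%) were called lower and 14 higher. Of the 6710 loci from 10 to 100, 697 (10.4%) were called lower and 314 (4.68%) higher. Of the 9043 loci from 1 to 10, 203 (2.24%) were called lower and 478 (5.29%) higher. Called or not, 999 of these 9043 were at least 2-fold lower and 1131 at least 2-fold higher. Relative errors in the T2 control had a median of 0.291 at FPKM 1 to 10 and 0.181 at 10 to 100, so the called shares depend on precision as well as on change. The 1183 loci under 1 in the T1 control had to reach 1 in a T2 group to be counted as expressed, which favours rises, so nothing is read from the balance of calls among them.

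**Figure D2:**
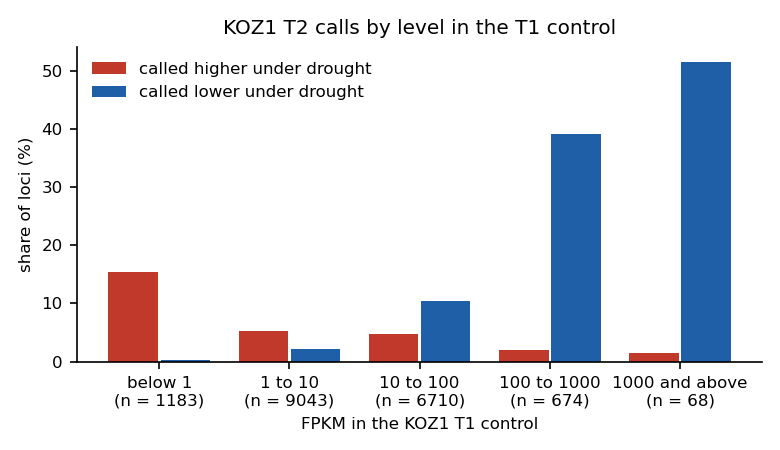
Share of expressed loci called higher (red) or lower (blue) in KOZ1 T2 drought, by FPKM in the KOZ1 T1 control, in percent of the loci in each class. From the class of 1 to 10 upwards the share called lower goes from 2.24% to 51.5% and the share called higher from 5.29% to 1.47%, while in the lowest class the FPKM limit for expressed loci favours rises.

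The 100 loci of highest FPKM in the T1 control, which ranged there from 639 to 14010, made up 45.7% of the summed FPKM of KOZ1 at T0 and 48.5% in the T2 control. Under drought at T2 they made up 23.2%. Of these loci, 89 had a lower FPKM in KOZ1 T2 drought than in the control, 79 of them at least 2-fold, and 52 were called lower. After scaling to the same sum 35 were still called lower and their median log2 change was -1.49, against -2.14 as deposited. At T1 the same 100 loci had a median log2 change of 0.20.

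Over all loci, 383233 FPKM were lost and 111471 gained between control and drought. The 10 largest losses made up 29.1% of all losses and the 100 largest 72.1%. The largest was at Bradi2g16290 (chromosome 2, 14360127 to 14361220, assembly v3.0), from 17710 in the control to 3305 under drought, a log2 change of -2.42 ± 0.58 (SE). Bradi2g44856, which shares its span with another locus, fell from 14839 to 1048.5, Bradi4g37210 from 15560 to 2328 and Bradi1g24760 from 12447 to 1132. The limits of control and drought did not meet in any of these 4 loci. The neighbours of Bradi2g16290 on both sides, Bradi2g16282 and the joined locus of Bradi2g16300 and Bradi2g16305, fell as well, from 81.0 to 7.83 and from 160.0 to 40.3. No annotation of these loci was used here.

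Bradi4g08800 (chromosome 4, 7953205 to 7954426) fell further in relation to its level, from 11576.5 to 639, which was 18.1-fold. Its FPKM in the other KOZ1 groups was 10815 at T0, 11178 in the T1 control and 12294 in T1 drought. The other 4 groups thus lay close together, and the T2 drought value stood below the lower limit of each of them, the lowest of which was 3729. Bradi4g08500 had the same course, at 9062, 9234, 10295, 9666 and 621 in T0 control, T1 control, T1 drought, T2 control and T2 drought. The joined locus of Bradi1g52450, Bradi1g52460 and Bradi1g52470 (12249 to 1068) and Bradi3g26391 (11064 to 1275) fell as well, the latter not after scaling to the same sum. Size alone did not make a call: Bradi1g15290 was at 11727 and 1753, with limits of 0 to 5382 under drought, and did not pass. Bradi4g24367, at 11631 and 3591, missed the threshold as deposited and was called lower after median scaling.

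The gains were smaller in sum, and the 10 largest made up 25.9% of them. The largest was at Bradi4g44410 (chromosome 4, 47767234 to 47768040), which rose from 1812 to 11152 with a log2 change of 2.62 ± 0.83. Its limits of 686 to 21618 under drought overlapped those of 659 to 2966 in the control. Bradi4g25750 rose from 268 to 8108, with limits of 0 to 16420 under drought. Bradi1g37410 (chromosome 1, 33400971 to 33402000) was almost silent in watered leaves: it stood at 0.032, 0.239 and 0.757 in the T0, T1 and T2 controls and at 0.278 in T1 drought. At T2 under drought it reached 2563 (limits 151 to 4975). Bradi3g43870, chosen after its values were seen, followed the same course, from 0.404 in the T2 control to 810 under drought. Bradi4g24650 rose from 528 to 2123. Bradi2g03280, at 1862 and 5232, did not pass as deposited and was called higher only after scaling to the same sum.

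**Figure D3:**
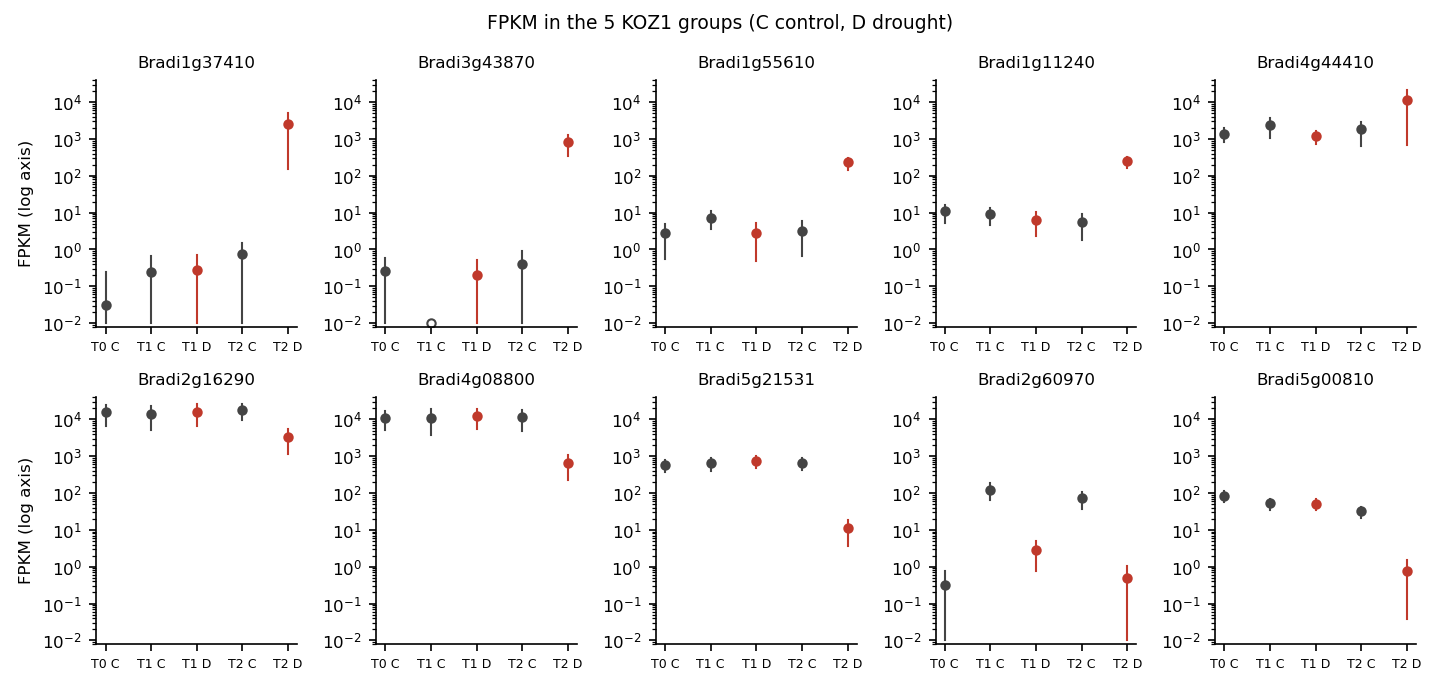
FPKM of 10 loci in the 5 KOZ1 groups on a log axis (dark points control, red points drought, lines the deposited 95% limits, values or limits under 0.01 drawn at 0.01, open point listed at 0). In the loci other than Bradi2g60970 the T2 drought value lies outside the range of the other 4 groups, and in Bradi2g60970 both drought groups and T0 are low.

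The largest rises among loci of a single gene that reached FPKM 1 in control and drought alike started from control values between 1.00 and 3.24. Bradi1g20670 rose from 1.00 to 88.2 (log2 change 6.46 ± 0.84) and had been at 9.20 at T0 and 4.31 in T1 drought. Bradi2g45053 rose from 1.01 to 87.6, and its other KOZ1 groups lay between 0.368 and 0.395. Bradi2g27280 rose from 1.57 to 130 and Bradi2g17530 from 1.19 to 96.8. Bradi1g55610 (chromosome 1, 54306552 to 54307332) reached 230 from 3.24, a change of 71.1-fold, with limits of 147 to 313 under drought and 0.682 to 5.79 in the control. The remaining 5 of the 10 largest rises were Bradi2g22410, Bradi3g50220, Bradi4g09430, Bradi2g54810 and Bradi5g09610, which reached between 69.6 and 132 under drought. Bradi2g22410 and Bradi3g50220 share their span with another locus, so their counts could have been split.

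A further 191 of the rises started from an FPKM under 1, and 24 of those were listed at 0 in the control. Bradi2g33170 was listed at 0 in the control and had 165 under drought, and Bradi2g18106 and Bradi4g17200 were listed at 0 and had 143 and 96.3. No fold is given against these zeros. Bradi4g22290 stood at 0.057 and 111, Bradi3g37150 at 0.092 and 86.1 and Bradi3g44260 at 0.313 and 84.7. These 6 loci were chosen after their values were seen.

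The largest falls of such loci started from control values between 50.2 and 658. Bradi3g37680 (chromosome 3, 39949425 to 39952893) fell from 135 to 2.17, a log2 change of -5.96 ± 0.60, and its control level had been 487 at T0 and 301 at T1. Bradi5g21531 (chromosome 5, 24285574 to 24286456) kept to 582, 636, 728 and 658 in T0 control, T1 control, T1 drought and T2 control. In T2 drought it had 11.1, a fall of 59.2-fold whose limits of 3.70 to 18.5 lay far under the 424 to 892 of the control. Bradi2g14940 fell from 60.3 to 1.34, Bradi1g06695 from 197 to 5.26, Bradi1g45535 from 194 to 5.39 and Bradi1g69220 from 167 to 4.94. Bradi2g40790, Bradi4g35890, Bradi5g02176 and Bradi1g62880 completed the 10 largest falls, with 50.2 to 95.3 in the control and 1.86 to 3.23 under drought. Of all falls, 121 ended under an FPKM of 1, among them Bradi1g05450 (42.1 to 0.456), Bradi1g65130 (37.2 to 0.129) and Bradi1g56860 (46.6 to 0.774), chosen after their values were seen.

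Of the genes that carried a functional annotation in the gene tables of the study, 140 genes at 141 loci were found and 118 loci were expressed. Of these, 23 were called higher and 25 lower, with a median log2 change of 0.18 beside 0.08 for all expressed loci, of which 5.60% were called higher and 6.79% lower. At the same sum 43 annotated loci were called higher and 13 lower. The tables were drawn up from enriched gene classes: 44 expressed loci come from a list for ABR4 at T2, 40 from ABR8 at T2 and 5 from ABR8 at T1. These lists hold genes that the study called changed by drought in those genotypes. In KOZ1 T2, 14 loci of the ABR4 T2 list were called higher and 10 lower, and 9 and 5 of the ABR8 T2 list. Most genes in the groups below were thus chosen as drought responsive, so call rates above those of all expressed loci come with the lists. For 38 loci in cell wall clusters, the choice used all comparisons including KOZ1 T2, so the direction of that list is not independent of these samples.

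A gene of abscisic acid synthesis and a gene of its breakdown rose. Bradi1g13760, listed as a 9-cis-epoxycarotenoid dioxygenase, the enzyme type that makes the precursor of abscisic acid, rose from 0.212 to 19.7 (log2 change 6.54 ± 0.92). It stood at 0.191, 0.026 and 0.220 in T0 control, T1 control and T1 drought. Bradi3g52660, related to abscisic acid 8'-hydroxylase, which breaks the hormone down, rose from 34.2 to 127 (log2 change 1.89 ± 0.34), and the other KOZ1 groups lay between 27.7 and 32.3. Bradi5g00810, a 12-oxophytodienoic acid reductase of jasmonate synthesis, fell from 32.3 to 0.768, and its level had been 85.0 at T0 and 52.3 and 50.9 in T1 control and drought. Bradi1g00950, a gibberellin 20-oxidase, which makes active gibberellins, fell from 5.86 to 1.18, a call that was lost after scaling to the same sum. Of 10 expressed hormone loci, these 2 rises and 2 falls passed and 6 loci did not, with a median log2 change of 0.36. Among those, Bradi2g35907, another reductase of the jasmonate type, was at 1.62 and 0.152, and the JAZ gene Bradi1g72590, a repressor of jasmonate responses that shares its span with another locus, at 2.11 and 4.68.

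Several sugar transporters rose. Of 8 expressed loci 4 were called higher and none lower by the z-test with adjusted p, at a median log2 change of 1.19. Over all expressed loci 5.60% were called higher and 6.79% lower. At an unadjusted p under 0.05, 4 were higher and 1 lower. Bradi3g10270, a SWEET transporter, a channel type that lets sugars out of cells, rose from 0.272 to 28.2, and in the other KOZ1 groups it was at 0.710 or less. Bradi1g62890, also a SWEET, rose from 2.41 to 20.1. Bradi1g23440, a predicted carrier of the major facilitator superfamily, rose from 1.33 to 26.5, and Bradi3g46650 from 6.61 to 23.3. The third expressed SWEET, Bradi2g40537, was at 6.29 and 2.88 and did not pass, and Bradi4g14710, annotated for glucose transport, was at 2.53 and 0.505 and was called lower after median scaling.

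Copper proteins of the wall and apoplast rose in 4 of 6 expressed loci, and none was called lower by the same test or at an unadjusted p, at which 5 were higher. Beside them stand 5.60% called higher and 6.79% called lower over all expressed loci. Bradi1g11240, with a plastocyanin-like copper-binding domain, rose from 5.41 to 245 (log2 change 5.50 ± 0.55), after 10.8, 9.04 and 6.22 in T0 control, T1 control and T1 drought. It shares its span with another locus. Bradi1g45710, of the same kind, rose from 5.86 to 50.8. Laccases, which couple lignin units, rose at Bradi2g54690 (4.55 to 51.4) and Bradi1g66720 (5.87 to 28.5). Bradi1g59120 and Bradi1g01610, at 2.51 and 5.77 and at 1.88 and 7.96, did not pass.

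Peroxidases, which use hydrogen peroxide and in part act in the cell wall, were split. Of 12 expressed loci, 3 rose, 2 fell and 7 did not pass. The rises were at Bradi2g13190 (0.654 to 24.5), Bradi2g12204 (1.52 to 24.3) and Bradi2g12216 (1.66 to 16.4), all on chromosome 2, of which Bradi2g13190 shares its span with another locus. The falls were at the neighbouring loci Bradi1g17840 (25.3 to 2.41) and Bradi1g17850 (6.64 to 0.762) on chromosome 1, and the next expressed locus, which joins Bradi1g17870 and Bradi1g17877, also fell, from 23.9 to 3.94. Bradi1g65820, a cytochrome-c peroxidase type and the most abundant of the group, was at 127 and 164, and Bradi2g38660 at 31.4 and 36.4, and neither passed.

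The 12 expressed cytochrome P450 loci, monooxygenases of lipid, hormone and defence metabolism, held 3 rises and 4 falls. Bradi4g39240 rose from 1.44 to 23.8 and Bradi1g75730, annotated as an alkane or fatty acid hydroxylase, from 1.95 to 14.3. The latter had been at 24.9 at T0, above its T2 drought value, and at 2.83 and 13.0 in T1 control and drought. Bradi1g75740, beside Bradi1g75730 on chromosome 1 and related to an alkane hydroxylase of wax synthesis in Arabidopsis, rose from 9.13 to 33.8. Bradi2g33670 fell from 3.34 to 0.131. The falls of Bradi1g63460 (13.2 to 4.78), Bradi3g08160 (7.18 to 2.41) and Bradi1g14900 (3.99 to 0.790) were lost after scaling to the same sum.

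Of 9 expressed loci of dehydrogenases, aldehyde enzymes and inositol oxygenase, 3 rose and 1 fell. Bradi1g44480, the alpha subunit of the E1 component of pyruvate dehydrogenase, which feeds acetyl-CoA into respiration and fatty acid synthesis, rose from 0.631 to 42.2 (log2 change 6.06 ± 0.73). UDP-glucose dehydrogenase makes UDP-glucuronate for wall polysaccharides, and its gene Bradi1g08120 rose from 32.1 to 104. Bradi1g37870, a myo-inositol oxygenase, which opens a second route to glucuronate, rose from 3.26 to 15.5. In contrast Bradi4g29780, a cinnamyl alcohol dehydrogenase of the lignin pathway, fell from 34.7 to 2.14 (log2 change -4.02 ± 0.66). The median log2 change of the 9 loci was 1.46, and 5 did not pass.

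Of 8 expressed loci annotated for iron or chlorophyll, 3 rose and 2 fell. Bradi4g29720, a ferrous iron transporter, fell from 37.7 to 3.75 (log2 change -3.33 ± 0.46), although T1 drought had stood at 64.7 against 20.7 in its control. Bradi4g43860, annotated as a deoxymugineic acid dioxygenase, an enzyme type that modifies the iron chelators of grasses, rose from 3.16 to 14.8. Chlorophyllase Bradi2g00810 rose from 0.417 to 3.90, and Bradi2g19010, a DnaJ-type chaperone, from 5.56 to 18.4. Bradi3g11060, listed with an aminolevulinate synthase activity but with a RefSeq symbol that lies at another locus, fell from 28.4 to 7.62. Bradi4g44870, annotated for ferrous and ferric iron binding, was the most abundant at 588 and 306 and did not pass.

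Of 14 expressed glycoside hydrolases 4 fell and none rose by the z-test with adjusted p, and at an unadjusted p 8 fell and none rose. Over all expressed loci 5.60% were called higher and 6.79% lower. The called falls named in this paragraph all belong to the cell wall clusters, whose 38 expressed loci held 11 falls and no rises. That list was chosen from all comparisons including KOZ1 T2, so this direction is not independent of these samples. Bradi4g20197, a beta-D-xylosidase that trims xylan, fell from 13.3 to 1.98, after 57.7 at T0 and 19.5 in the T1 control. Bradi3g07385, of glycosyl hydrolase family 17, fell from 25.8 to 7.23. The falls of the xyloglucan endotransglycosylase Bradi3g18590, which cuts and rejoins xyloglucan (46.7 to 18.2), and of the pullulanase Bradi5g00540, which debranches starch and shares its span with another locus (8.60 to 3.33), were lost after scaling to the same sum. So were those of the expansin Bradi2g22290, a wall-loosening protein (7.27 to 1.37), and the xyloglucan fucosyltransferase Bradi3g58040 (18.6 to 7.15), each the only call in its list, of 4 expressed pectin enzymes and expansins and of 6 expressed glycosyl transferases. The median log2 change of the hydrolases was -1.32.

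Acyl carrier proteins, which hold growing fatty acids in the chloroplast, and nucleotide sugar epimerases fell in 4 of 5 loci. The falls named in this paragraph are also from the cell wall clusters, so their direction is not independent of these samples. Acyl carrier protein 1 (Bradi4g05860) fell from 91.7 to 37.1 and acyl carrier protein 4 (Bradi4g18170) from 28.2 to 8.51. UDP-glucuronate 4-epimerase 6 (Bradi4g34430), which makes precursors of pectin, fell from 6.76 to 1.02, and Bradi3g53830 from 10.6 to 2.77. Of these, only Bradi4g34430 was still called after scaling to the same sum. The trehalose-phosphatase Bradi3g50810 fell from 5.44 to 0.756 and stayed called under that scaling. CslF6 (Bradi3g16307), the mixed-linkage glucan synthase of grass walls, was at 12.4 and 24.2 and did not pass.

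**Figure D4:**
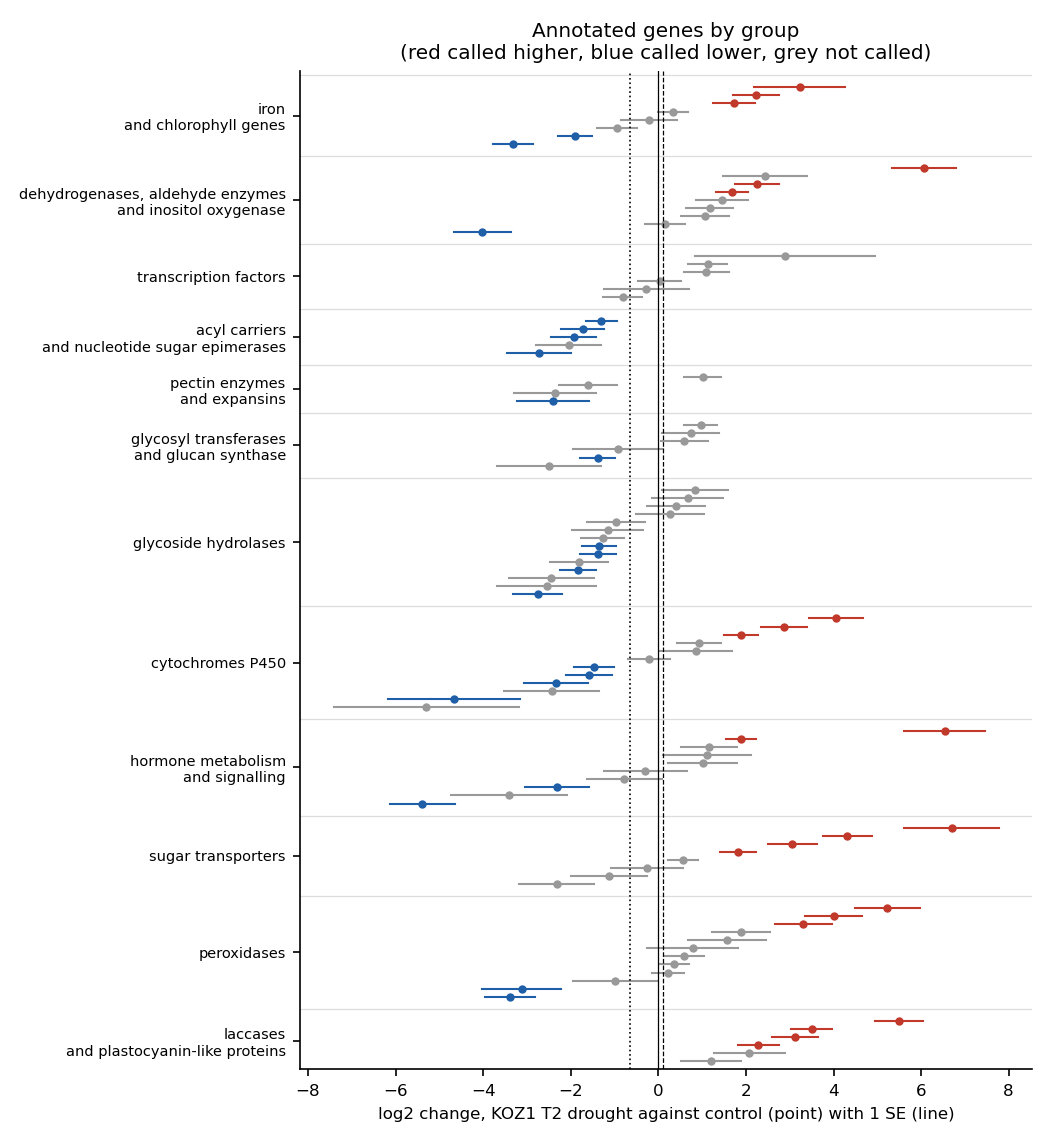
log2 change with 1 SE of the expressed annotated loci in 12 groups, KOZ1 T2 drought against control. Copper proteins and sugar transporters hold called rises and no called falls, and acyl carriers with epimerases and glycoside hydrolases called falls and no called rises. These called falls are all from the cell wall clusters, which were chosen from all comparisons including KOZ1 T2. Over all expressed loci 5.60% were called higher and 6.79% lower. The dashed and dotted lines mark no change after median scaling and after scaling to the same sum.

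None of 6 expressed transcription factor loci that the study names passed the z-test with adjusted p, and 2 were higher at an unadjusted p. The ERF gene Bradi5g21250 was at 8.99 and 19.6 and the WRKY gene Bradi1g30870 at 3.74 and 7.98, while the WRKY gene Bradi2g44270 was at 13.0 and 13.2. Of 25 loci with a proper RefSeq gene symbol at their position, 17 were expressed, and 1 rose and 1 fell. SWN7 (Bradi1g50057), a NAC transcription factor of secondary walls, rose from 2.72 to 10.3, while SWN5 (Bradi5g27467) was at 17.6 and 13.6 and SWN8 (Bradi3g13727) at 1.53 and 0.582. YSL9 (Bradi5g17210), a yellow stripe-like metal transporter, fell from 21.5 to 6.71 as deposited and after median scaling but not after scaling to the same sum. The mitogen-activated protein kinase genes MPK3, MPK6, MPK11, MPK14 and MPK17 were not called, for example MPK3 (Bradi1g65810) at 16.2 and 22.8 and MPK6 (Bradi1g49100) at 31.9 and 20.7. CAD5 (Bradi3g06480), a lignin gene, stood just outside the threshold, at 23.6 and 52.4, and was not called.

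Among expressed loci in chromosome order there were 86 runs of 2 or more rises and 110 of 2 or more falls, of which 6 and 11 reached 3 loci, and none reached 4. Loci on the same span were counted apart, as Bradi2g27870 and Bradi2g27880 were in 1 of the runs of 3 rises. The number of runs to be expected from the share of calls was not worked out. On chromosome 3, Bradi3g37130 rose from 11.0 to 179, Bradi3g37140 from 23.0 to 56.8 and Bradi3g37150 from 0.092 to 86.1. On chromosome 2, the run of Bradi2g17530, Bradi2g17540 and Bradi2g17550 rose to 96.8, 43.7 and 84.3 from 1.19, 13.3 and 6.69. In these runs the loci differed widely in size of change, while in others they were close, such as 1.67, 1.62 and 1.77 on the log2 scale at Bradi3g50420, Bradi3g50430 and Bradi3g50440. Rises made up 4.98% to 6.09% and falls 5.94% to 7.44% of the expressed loci of each of the 5 chromosomes.

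Most called loci lay outside the range of the other KOZ1 groups in T2 drought. Of the 990 rises, 961 were above all 4 other KOZ1 groups in T2 drought and 798 at least 2-fold above the highest of them. Of the 1201 falls, 1168 were below all 4 and 925 at least 2-fold below the lowest. The T2 control is among these 4 groups and was used for the calls, so these counts follow in part from the selection. The share over all expressed loci was not counted. When the T2 drought group was compared with the T1 control in place of the T2 control, 864 of the rises (87.3%) and 946 of the falls (78.8%) were called again in the same direction, and none in the opposite one. In that comparison 4.42% of the tested loci were higher and 4.97% lower, and it shares the drought libraries with the main one. Against the T0 control, 704 of the rises and 816 of the falls were called again, beside 3.95% and 5.41% of the loci tested. The T1 and T2 controls themselves differed at few loci, 10 higher (0.0385%) and 14 lower (0.054%) of 25947 at T2. The T2 control differed more from T0, with 159 loci higher and 354 lower.

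Drought on day 4 had called 41 loci higher and 80 lower (0.155% and 0.303% of the loci tested), with other libraries on both sides. Of these, 6 of the 41 rises and 18 of the 80 falls were called in the same direction at T2, which was 6 of the 990 and 18 of the 1201 at T2. Bradi2g60970 (chromosome 2, 57986640 to 57990310) fell on both days, at 125 and 2.83 in T1 control and drought and at 72.6 and 0.483 at T2. Its level at T0 was 0.314. Bradi1g25517 (60.2 and 2.47 at T1, 18.3 and 0.358 at T2) and Bradi2g45143 (10.2 and 2.62, then 11.4 and 0.357) also fell on both days. Bradi3g21030 rose on both, from 0.118 to 26.3 at T1 and from 0.186 to 8.99 at T2, and was at 45.3 at T0. In these 4 loci the T0 level lay on the side of the drought groups.

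Another 11 loci had fallen on day 4 and rose on day 8. Bradi2g04720 went from 4.80 to 0.230 at T1 and from 1.91 to 22.3 at T2, and Bradi4g39240, the P450 gene above, from 6.57 to 0.458 and then from 1.44 to 23.8. Their T0 levels were 0.289 and 2.06, below the T1 controls, so the fall on day 4 is against a control that stood above T0. The test of the difference between both responses used loci above 0 in all 4 groups, and found 425 loci with a higher and 676 with a lower log2 change at T2 than at T1 (1.85% and 2.93% of 23035 tested). With all 4 groups set to the same sum this balance turned, to 1544 higher and 282 lower. On deposited FPKM, 373 of 957 tested T2 rises and 659 of 1198 tested T2 falls differed from T1. These loci had been picked on the same T2 values. Among KOZ1 T2 calls with an FPKM of at least 1 in both T2 groups, the largest differences were at Bradi2g27280 (10.26 ± 1.95 on the log2 scale) and Bradi4g09430 (9.32 ± 1.22), which was at 3.37 and 0.252 at T1 and rose from 1.80 to 85.7 at T2.

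The same treatment at T2 called 10 loci higher and 8 lower in ABR4 (0.0388% and 0.031%), a genotype of intermediate drought response, and 4 higher and 6 lower in ABR8 (0.0153% and 0.0229%), the tolerant genotype. The study's own Cuffdiff calls, over T1 and T2 together, were far more numerous in both genotypes. Few calls in the z-test used here are therefore not read as absence of a response. In ABR8 the watering field of the labels disagrees with the titles, and the titles were used. Of the 10 ABR4 rises 8 were also called higher in KOZ1, among them both laccase genes and the plastocyanin-like Bradi1g45710. Bradi2g54690 rose from 2.69 to 22.2 in ABR4 and from 4.55 to 51.4 in KOZ1, and Bradi1g66720 from 1.38 to 12.8 and from 5.87 to 28.5. Bradi2g54810 rose from 6.20 to 27.4 in ABR4 and from 2.17 to 100 in KOZ1. Of the 8 ABR4 falls 5 were called lower in KOZ1 and 2 were called higher, Bradi1g38120 and Bradi5g04630. Bradi1g38120 went from 29.9 to 3.45 in ABR4 and from 3.35 to 14.9 in KOZ1, a call lost after median scaling. In ABR8, 3 of the 6 falls were shared, Bradi2g60970 (64.6 to 5.42), Bradi2g45143 (22.2 to 2.96) and Bradi2g61050 (66.9 to 6.20).

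Differences between the responses were tested locus by locus. Against ABR4, 193 loci had a higher and 304 a lower change in KOZ1 (0.867% and 1.37% of 22261 tested), and against ABR8 371 and 723 (1.68% and 3.27% of 22123). At the same sum these counts became 525 and 119 against ABR4 and 1828 and 277 against ABR8, so the side with more loci turned in both. The KOZ1 rises had a median log2 change of 0.33 in ABR4 and -0.03 in ABR8, and the KOZ1 falls -0.25 and 0.16, beside 0.04 and -0.02 for all expressed loci. Bradi5g04630 moved in opposite directions, from 27.7 to 1.27 in ABR4 and from 1.89 to 24.8 in KOZ1, a difference of 8.17 ± 1.11 on the log2 scale. In KOZ1 this locus had been at 165 at T0 and had risen from 2.55 to 85.2 at T1, so its T2 drought value lay below both T0 and T1 drought. In ABR8 it was at 24.1 and 91.6 and was not called. Bradi5g26230, annotated with a dehydrogenase activity, fell from 125 to 14.8 in KOZ1 and rose from 43.0 to 170 in ABR8. The chaperone gene Bradi2g19010 was called higher in KOZ1 and lower in ABR8, where it went from 41.2 to 4.596. Bradi3g37680, described above, was at 201 and 344 in ABR8 and 292 and 148 in ABR4. The change in KOZ1 was beyond that at T1, in ABR4 and in ABR8 at 129 of its rises and 277 of its falls. These loci had been picked on the same KOZ1 T2 values that enter all 3 tests. Neither a share over all loci nor a count at the same sum was made for them. Among them were Bradi1g63510 (0.3796 to 46.6 in KOZ1) and Bradi1g05450, which stood at 16.7 and 9.59 in ABR4 and 22.6 and 17.2 in ABR8.

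**Figure D5:**
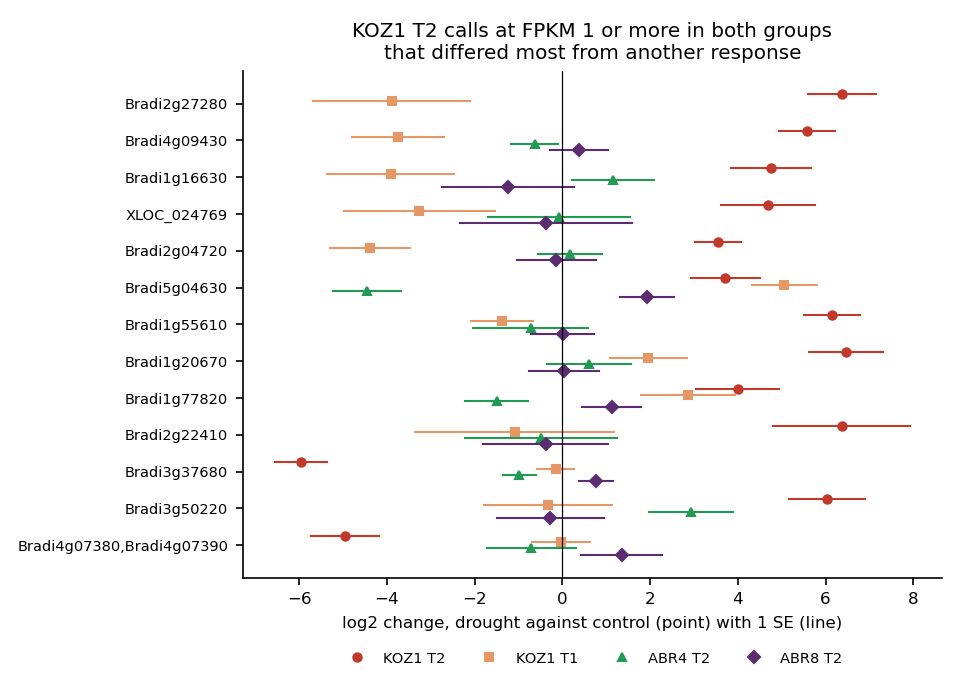
log2 change with 1 SE, drought against control, in KOZ1 T2, KOZ1 T1, ABR4 T2 and ABR8 T2 where it could be computed. The 13 loci are those with the largest differences from another response among KOZ1 T2 calls with an FPKM of at least 1 in both KOZ1 T2 groups. KOZ1 T2 lies to the right of the other responses for most loci and to the left at Bradi3g37680 and the joined locus of Bradi4g07380 and Bradi4g07390, while KOZ1 T1 reaches further right at Bradi5g04630.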

How the data were processed

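Total leaf RNA was sequenced by the authors from 45 libraries (3 in each of 15 groups). Per the labels and the methods of the study, reads were trimmed with Trim Galore 0.4.1, aligned with TopHat2 2.1.1 and Bowtie2 2.2.9, and quantified with Cufflinks 2.2.1 and Cuffdiff. The table deposited by the authors holds 1 pooled FPKM per group and locus with confidence limits and a status word. Depth per library cannot be read from these values, and the read pairs per library that the study tabulates were not used here. Standard errors were the upper limit minus FPKM, divided by 1.96. Changes were tested with two-sided z-tests on ln FPKM (on the difference where a group was at 0), with Benjamini-Hochberg adjustment over all loci tested. P-values measure only the spread Cuffdiff modelled between the 3 libraries. Per the study's methods 45 plants were harvested as biological replicates. Differences between responses were z-tests on loci above 0 in all 4 groups. Scripts (Python 3.11.15, pandas 2.3.3, scipy 1.17.1, statsmodels 0.14.6) were tested on simulated data. Locus starts were made 1-based. RefSeq symbols were taken by position on assembly v3.0, where the locus held at least 80% of a single gene that filled at least 50% of it (15823 loci). The positions of 129 of the 131 gene and symbol pairs given by the study overlapped. Roles come from those tables, and the groups were formed from their category names. Named loci were the 10 largest rises and falls, the 10 largest losses and 5 largest gains of FPKM, the leading members of each group, and 5 loci per difference of responses. The genes, lists and groups were chosen with earlier results of these data known. Keyword lists and promoter motifs were not run here.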

Additional observations from a re-analysis of the deposited data

Results flagged for a closer look

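The drought response of KOZ1 at T2 differed, by the test of the difference itself, from each of the other 3 responses. Against KOZ1 T1, 425 loci had a higher and 676 a lower change. Loci named here are the 5 of largest difference in each comparison among KOZ1 T2 calls with an FPKM of at least 1 in both KOZ1 T2 groups, and larger differences at loci under that limit are left out. Against KOZ1 T1 they were Bradi2g27280 (10.26 on the log2 scale), Bradi4g09430 (9.32), Bradi1g16630 (8.66), XLOC_024769 (7.95) and Bradi2g04720 (7.93), all of which were lower under drought than in the control at T1 and higher at T2. Only Bradi2g04720 was called lower at T1. Bradi1g16630 shares its span with another locus. Against ABR4 T2, 193 loci were higher and 304 lower, and the 5 were Bradi5g04630 (8.17), Bradi1g55610 (6.88), Bradi4g09430 (6.20), Bradi1g20670 (5.85) and Bradi1g77820 (5.49). Bradi1g77820 went from 10.2 to 3.61 in ABR4 and from 1.44 to 23.0 in KOZ1. Against ABR8 T2, 371 loci were higher and 723 lower, and the 5 were Bradi2g22410 (6.74), Bradi3g37680 (-6.74), Bradi1g20670 (6.43), Bradi3g50220 (6.31) and the joined locus of Bradi4g07380 and Bradi4g07390 (-6.30), which fell from 2490 to 80.7 in KOZ1 and was at 1103 and 2811 in ABR8. Bradi2g22410, Bradi3g50220 and the joined locus share their spans with other loci. With all 4 groups of each comparison set to the same sum the balance of all 3 comparisons turned. It went to 1544 higher and 282 lower against KOZ1 T1, 525 and 119 against ABR4 and 1828 and 277 against ABR8. The disagreement between watering field and titles in ABR8 was not tested.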

How the results depend on the processing

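No paired analysis was possible because the columns hold 1 pooled value per group and carry no replicate number, and for the same reason no library could be left out. The promoter search was not run. The count of 990 rises and 1201 falls stayed within 1.5 times under non-overlapping limits, a z-test on the FPKM difference, a pseudocount of 1, both filters, median scaling, a divisor of 2, single-identifier loci and, chosen after seeing the data, the T1 or T0 control in place of the T2 control. At an unadjusted p rises numbered 1590 (1796 falls), and 1354 after median scaling. At 4-fold there were 505 rises and 525 falls, and at the same sum 3499 and 545. The median log2 change of 0.08 turned to -0.036 at the same median and rose to 0.73 at the same sum. The ratio of summed FPKM, drought over control, was 0.638, and 0.733 and 0.952 without the 10 and the 100 highest control loci. Of the annotated loci, 23 rises and 25 falls became 43 and 13 at the same sum, and 35 and 39 at an unadjusted p. Differences from KOZ1 T1 became 1110 higher and 1622 lower at an unadjusted p and 1544 and 282 at the same sum, those from ABR4 790 and 1114 and then 525 and 119, and those from ABR8 1036 and 1570 and then 1828 and 277. T2 against T1 control gave 81 and 187 at an unadjusted p. Of the 105 loci named or called among the annotated genes, those listed at 0 in a group were left out of this count. Of the rest, 87 kept their state at the same sum, 14 lost their call, 1 gained a call and no called change turned sign. This set leans to large changes. Over all calls, 837 of the 990 rises and 544 of the 1201 falls were called under all 3 scalings. Relative errors in the control had a median of 0.233 over expressed loci, 0.291 for loci from 1 to 10 FPKM and 0.318 for loci from 1000 FPKM. This limits calls among the least and the most abundant loci. Beyond the construction of each setting, the cause of these shifts was not tested.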
